A study of Homo sapiens with 12 samples.

Results

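The tumour necrosis factor (TNF) family as taken here held 39 of the 63086 genes in the table, namely 16 ligands and 23 receptors. Members were chosen by gene symbol: every numbered TNFSF or TNFRSF symbol, together with TNF, LTA, LTB, FAS, FASLG, CD40 and CD70. The family was taken up with earlier results of these data known. It was selected on the level of TNFRSF11B in CRISPR Control against WT, so this difference is given as a description with no test.

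RNA of MIA PaCa-2 cells, an established human pancreatic ductal adenocarcinoma line, was sequenced from 4 lines with 3 biological replicates each. WT was the non-manipulated line. CRISPR Control went through the editing procedure and kept only a silent change in TIMP1, so it was expected to make the normal protein. TIMP1 KO 1 and TIMP1 KO 2 were knockout clones in which exon 4 of TIMP1 had been targeted with CRISPR-Cas9 and 2 guide RNAs for separate stretches of that exon, and they are called the deficient lines, against the competent lines WT and CRISPR Control. The 4 lines shared the RPMI medium with FCS and were harvested before confluence, with no other treatment. Each deficient line was 1 clone, so TIMP1 status and clone cannot be told apart within a line. The p-values below rest on the spread among the 3 replicate libraries of each line, pooled over the 4 lines.

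TNF ligands are mostly made as membrane proteins that act on neighbouring cells or are shed, and their receptors fall into groups by what their cytoplasmic part does. Death receptors such as FAS and the TRAIL receptors carry a death domain and can start apoptosis, decoy receptors bind a ligand without passing on a full signal, and the others bind TRAF adaptors and activate NF-kB and MAP kinases. In carcinoma cells the family is known both for the response to TRAIL and FAS ligand and for co-stimulation of lymphocytes and natural killer cells, for example through 4-1BB, CD27 and CD40.

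Values are normalised counts, that is reads per gene divided by a size factor of the library. Reads in genes ran from 26908701 to 36093563 per library, and a count of 0 leaves room for up to 3 reads, or 2.49 to 3.56 normalised counts, by counting error only. TIMP1, the targeted gene, was at 3290 to 3837 in the WT libraries and at 2285 to 2959 in CRISPR Control. It was at 1562 to 1624 in KO 1 and at 1136 to 1192 in KO 2. Its transcript was thus lower in both deficient lines but still present, at 45.0% and 32.7% of the WT mean. This says nothing of the protein. CRISPR Control was below WT too (log2 fold change -0.41, SE 0.09, adjusted p = 0.000769, limma). The 6 markers fixed for an epithelial carcinoma line with mesenchymal traits were above a mean of 10 in the table, with a summed level of 265785 to 286127 in WT, but 107503 to 135643 in CRISPR Control, and of 308109 to 315239 in KO 1 and 250115 to 270632 in KO 2. Of 10 blood cell markers, 3 (CD14, CD79A and ITGAM) passed that mean and MS4A1 was at 0 throughout. The summed level of the 10 was 67.9 to 85.7 in WT, 60.5 to 78.3 in CRISPR Control, 118 to 140 in KO 1 and 247 to 298 in KO 2. For 7 fibroblast and osteoblast markers, 3 of them above that mean (PDGFRA, PDGFRB and RUNX2), it was 216 to 259, 125 to 136, 402 to 436 and 709 to 763 in the same order. For 4 endothelial markers, with KDR alone above it, the sums were 133 to 145, 35.2 to 39.7, 97.9 to 109 and 231 to 250. By the design each culture held MIA PaCa-2 cells only, so these marker genes were measured in that line. The part of these genes in the results below was not tested. In such bulk RNA a change in some cells of a line and a change in all of them cannot be told apart.

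Promoter stretches are shown for 3 members whose transcripts stood higher in the deficient lines, TNFSF10, TNFSF9 and TNFRSF9, because the window upstream of each holds a motif of a pathway that TNF receptors and interferons use. Each line gives the 250 bases before the RefSeq start site (build GRCh38.p14, 5′ to 3′ on the strand of the gene). Capitals mark the match to an interferon-stimulated response element (GAAANNGAAA, either strand) in TNFSF10 and TNFSF9, and to the core of an NF-kB site (GGAANNTCC, either strand) in TNFRSF9.
TNFSF10, chr3:172523431-172523680, minus strand: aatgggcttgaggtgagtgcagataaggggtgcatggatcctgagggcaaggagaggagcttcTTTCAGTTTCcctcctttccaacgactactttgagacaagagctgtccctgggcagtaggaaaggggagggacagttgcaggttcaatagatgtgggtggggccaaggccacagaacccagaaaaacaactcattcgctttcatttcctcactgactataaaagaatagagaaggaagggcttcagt
TNFSF9, chr19:6530776-6531025, plus strand: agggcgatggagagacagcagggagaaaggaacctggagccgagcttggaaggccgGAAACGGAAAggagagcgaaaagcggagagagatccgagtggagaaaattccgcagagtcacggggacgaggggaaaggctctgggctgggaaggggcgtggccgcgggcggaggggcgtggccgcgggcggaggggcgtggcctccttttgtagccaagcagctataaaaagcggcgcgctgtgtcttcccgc
TNFRSF9, chr1:7940840-7941089, minus strand: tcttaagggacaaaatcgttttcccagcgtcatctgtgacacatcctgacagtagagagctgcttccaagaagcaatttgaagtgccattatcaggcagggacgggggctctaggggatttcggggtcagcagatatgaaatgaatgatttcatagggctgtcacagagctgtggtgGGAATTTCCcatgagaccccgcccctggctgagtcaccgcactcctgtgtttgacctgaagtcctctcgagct
The matches began 187, 194 and 73 bases before the start site. A window was on hand for 26 of the 39 members, 16 of them among the members tested below. The first motif was in the windows of 3 of these 16 (TNFSF10, TNFSF9 and TNFRSF1B) and in 3.57% of 35116 windows of all genes. The NF-kB core was in 2 of the 16 (LTB and TNFRSF9) and in 4.56% of all windows. Members are counted as genes with a match in any of their windows, and some had several, whereas the shares count single windows. Among members not tested, the first motif was also in windows of FASLG, TNFSF13B and TNFSF14. The other tested members with a match, TNFRSF1B and LTB, are not shown. Against WT, TNFRSF1B fell in KO 1 and rose in KO 2. LTB was called in neither deficient line (log2 fold changes -0.23 and -0.01, adjusted p = 0.719 and 0.984, limma). A match describes the letters only, and its part in any change was not tested.

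Of the 39 members, 25 reached the mean normalised count of 10 over the 12 libraries that was needed for testing. These were 8 of 16 ligands, 6 of 6 death receptors, 2 of 4 decoy receptors and 9 of 13 other receptors. TNFRSF11B and TNFSF15 reached this mean through 1 line alone, and TNFSF10 through both deficient lines alone, so these 3 had to differ between lines, and counts are also given without them. For TNFSF15 and TNFSF10, p-values are from the fit with no filter on low values. The 14 members below the minimum included TNF itself, FASLG and LTA, and their highest value in any library was 22.8, for TNFSF13B in KO 2. TNFSF11 (RANKL), TNFRSF6B and TNFRSF13B had no read in any library, although TNFRSF6B lies within the readthrough gene RTEL1-TNFRSF6B, which could take its reads. Other members named below overlap a second gene too, among them CD70 (RPL7P50), TNFSF10 (TBPL1P1), TNFRSF10A (TNFRSF10A-AS1), TNFRSF12A (CLDN6), TNFRSF14 (TNFRSF14-AS1), TNFRSF25 (ESPN), TNFRSF1B, TNFRSF13C (microRNA genes inside both), TNFRSF9 and TNFRSF11A (unnamed genes on the other strand).

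Among the ligands, TNFSF10, TNFSF9 and CD70 were higher in both deficient lines than in WT, with the higher value in KO 2, whereas TNFSF15 was high in WT alone. Of the 8 ligands tested, 4 rose in KO 1 and 5 in KO 2 against WT, and 1 fell in each. Of all genes tested, 18.0% and 27.1% were higher and 17.5% and 27.9% were lower. The ligands that rose include TNFSF10 and the 1 that fell is TNFSF15, both of which had to differ between lines. Without them, CD70, TNFSF9 and TNFSF12 rose in both deficient lines, and TNFSF4 in KO 2. TNFSF10 encodes TRAIL, the ligand of the death receptors DR4 and DR5, and lies at chr3:172505508-172523475. It was at 5.66, 4.55 and 4.76 in WT, at 13.8, 5.93 and 3.30 in CRISPR Control, at 29.2, 32.6 and 30.0 in KO 1, and at 108, 118 and 131 in KO 2. The 6 deficient libraries lay above the 6 competent ones with no overlap, and the lowest KO 2 library was above the highest KO 1 library. The ratio of means to WT was 6.14 in KO 1 (log2 fold change 2.40, adjusted p = 0.000215, limma with no filter) and 23.9 in KO 2 (4.33, adjusted p = 5.69e-08), whereas CRISPR Control differed from WT by 0.35 (adjusted p = 0.606) and, without its replicate 1, by -0.13. KO 2 was above KO 1 by 1.92 on the log2 scale (adjusted p = 0.00172). These folds rest on 15 reads in the 3 WT libraries together.

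TNFSF9 encodes the ligand of 4-1BB, a co-stimulatory receptor of T and natural killer cells. It was at 53.2, 55.5 and 69.5 in WT, at 111, 116 and 97.8 in CRISPR Control, at 119, 131 and 140 in KO 1, and at 206, 257 and 271 in KO 2. No library of a line overlapped with those of another line. Against WT the gene rose in KO 1 by 1.12 (SE 0.16, adjusted p = 1.73e-05) and in KO 2 by 2.03 (SE 0.16, adjusted p = 3.42e-09), but it also rose in CRISPR Control, by 0.86 (SE 0.16, adjusted p = 0.00015). Against CRISPR Control, the difference in KO 1 was 0.26 (SE 0.16, adjusted p = 0.162).

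CD70, the ligand of CD27 on lymphocytes, was the most abundant ligand per length in each of the 4 lines. It was at 996, 870 and 973 in WT and 838, 981 and 915 in CRISPR Control, which overlapped. KO 1 had 1722, 1554 and 1794 and KO 2 had 2457, 2898 and 2981, again with KO 2 above KO 1 throughout. CD70 rose by 0.84 in KO 1 (SE 0.09, adjusted p = 9.08e-07) and by 1.55 in KO 2 (SE 0.09, adjusted p = 8.53e-11), with a difference of -0.06 between CRISPR Control and WT (SE 0.09, adjusted p = 0.643). The receptor gene CD27 is not a member by the symbol rule and had at most 4 reads in any library.

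TNFSF12 encodes TWEAK, the ligand of FN14. It was at 387, 417 and 456 in WT, at 421, 388 and 597 in CRISPR Control, at 561, 576 and 592 in KO 1, and at 477, 567 and 628 in KO 2. The libraries of the deficient lines lay above those of WT, but 1 CRISPR Control library was as high as KO 2. The increase was 0.46 in KO 1 (SE 0.14, adjusted p = 0.0134) and 0.40 in KO 2 (SE 0.14, adjusted p = 0.0186). Without WT replicate 1 neither call was kept (adjusted p = 0.0622 and 0.0769), and without KO 2 replicate 2 or replicate 3 the second was lost (adjusted p = 0.056 and 0.0922), as it was with quantile normalization (0.0713). TNFSF12 and its neighbour TNFSF13 share the readthrough gene TNFSF12-TNFSF13, so reads could be split between these 3 genes.

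TNFSF4, the ligand of OX40, was a low transcript. It was at 19.2, 5.45 and 11.4 in WT, at 10.4, 10.7 and 3.30 in CRISPR Control, at 25.9, 23.6 and 16.8 in KO 1, and at 45.6, 42.1 and 36.3 in KO 2. KO 2 stood above the other 9 libraries, while KO 1 overlapped with WT. Against WT it rose in KO 2 by 1.84 (SE 0.43, adjusted p = 0.00135), and the value in KO 1 was 0.95 (SE 0.43, adjusted p = 0.0933). This second value passed the threshold without WT replicate 1 (adjusted p = 0.0313) and without CRISPR Control replicate 3 (adjusted p = 0.048).

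TNFSF15 encodes TL1A, the ligand of the death receptor DR3, and it went the other way. It was at 41.9, 60.9 and 54.3 in WT, at 1.73, 5.93 and 1.10 in CRISPR Control, at 0, 0 and 0.883 in KO 1, and at 11.6, 3.51 and 2.02 in KO 2. The 3 WT libraries were above the other 9. The WT mean was 17.9 times that of CRISPR Control (adjusted p = 7.16e-05, limma with no filter), which had 8 reads in all, and 9.17 times that of KO 2 (adjusted p = 0.000505), which had 20. KO 1 had 1 read in 3 libraries against 161 in WT, a ratio of 156 after scaling by size factors, with a counting interval of 27.7 to 6215 (95%, exact).

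LTB encodes lymphotoxin beta. It was at 19.2, 17.3 and 19.1 in WT, at 4.32, 7.12 and 12.1 in CRISPR Control, at 16.2, 20.3 and 11.5 in KO 1, and at 9.11, 19.3 and 34.3 in KO 2. CRISPR Control lay below WT, KO 1 overlapped with both, and KO 2 was spread from 9.11 to 34.3. The log2 fold change of CRISPR Control against WT was -1.24 (SE 0.43, adjusted p = 0.0225), and KO 2 was above CRISPR Control by 1.23 (SE 0.43, adjusted p = 0.0182). The first call was lost without WT replicate 1 (adjusted p = 0.0564), WT replicate 3 (0.0563) or CRISPR Control replicate 1 (0.0988), and the second without CRISPR Control replicate 1 (0.0869) or KO 2 replicate 3 (0.133). The eighth ligand tested, TNFSF13 (APRIL, a B cell survival factor), had a mean of 32.5 to 41.8 over the lines and passed the threshold in none of the 6 comparisons between pairs of lines.

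**Figure D1:**
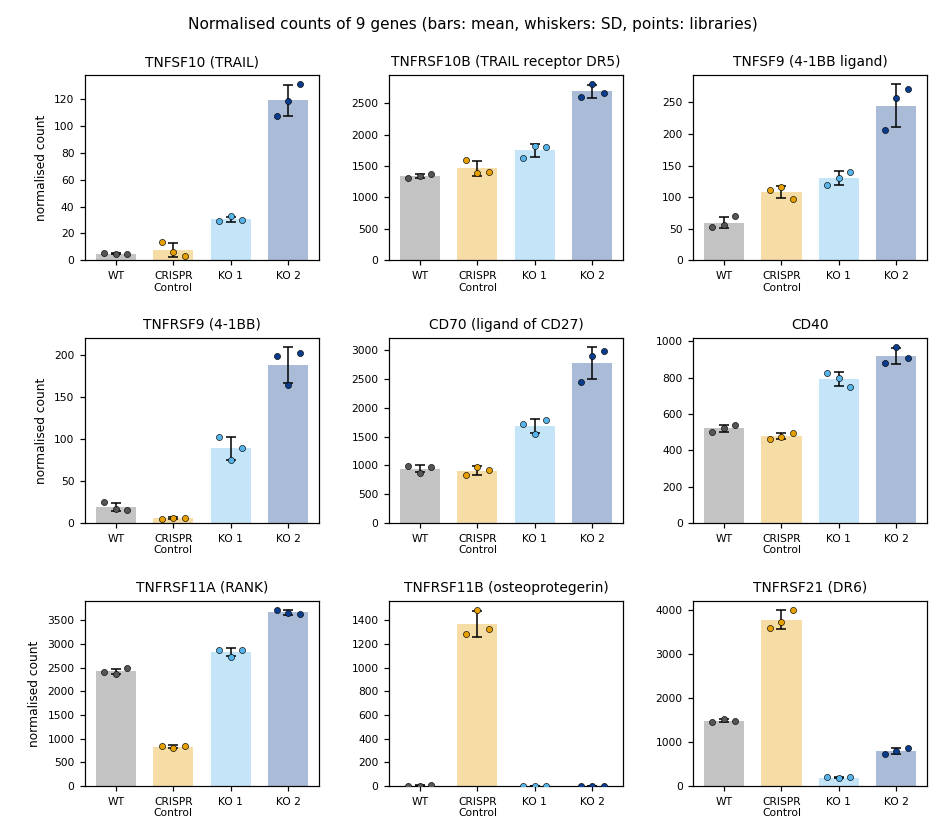
Normalised counts of 9 members in each line, with bars for the mean, whiskers for the SD and points for the 3 libraries. KO 2 lies above KO 1 in the panels of the other 8 genes, while TNFRSF11B is at 3.81 or lower outside CRISPR Control and at 1284 to 1492 inside it.

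Of the 6 death receptors, 3 rose in KO 1 against WT and 4 in KO 2, and TNFRSF21 fell in both, beside the shares of all genes given for the ligands (18.0% and 27.1% higher, 17.5% and 27.9% lower). TNFRSF10B encodes DR5, a TRAIL receptor with a death domain, at chr8:23020133-23069031. It was at 1308, 1341 and 1373 in WT, at 1599, 1392 and 1401 in CRISPR Control, at 1636, 1824 and 1801 in KO 1, and at 2605, 2806 and 2665 in KO 2. The deficient libraries were all above the competent ones, with a narrow gap between 1599 and 1636. The increase against WT was 0.39 in KO 1 (SE 0.08, adjusted p = 0.000593) and 1.00 in KO 2 (SE 0.08, adjusted p = 2.34e-09), against 0.12 in CRISPR Control (SE 0.08, adjusted p = 0.18). TNFRSF10B overlaps RHOBTB2 on the other strand. The second TRAIL death receptor, TNFRSF10A (DR4), was at 434 ± 18.9 in WT, at 380 ± 47.8 in CRISPR Control, at 398 ± 32.9 in KO 1 and at 490 ± 61.7 in KO 2 (SD, n = 3), and neither deficient line passed the threshold against WT.

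TNFRSF1A encodes TNFR1, the main receptor of soluble TNF, and was the most abundant of the death receptors per length in the WT line (1283 normalised counts per kb of transcript). It was at 2920, 2631 and 2803 in WT, at 1827, 1969 and 2282 in CRISPR Control, at 3305, 3494 and 3462 in KO 1, and at 3982, 4296 and 4238 in KO 2. The lines did not overlap and stood in the order CRISPR Control, WT, KO 1, KO 2. The change against WT was -0.46 in CRISPR Control (SE 0.08, adjusted p = 7.95e-05), 0.30 in KO 1 (SE 0.08, adjusted p = 0.00665) and 0.58 in KO 2 (SE 0.08, adjusted p = 5.16e-06). TNF, the ligand, had at most 4 reads in any library.

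TNFRSF21, which encodes the orphan death receptor DR6 at chr6:47231532-47309905, had the lowest level in KO 1 and the highest in CRISPR Control. It was at 1441, 1517 and 1484 in WT, at 3582, 3728 and 4008 in CRISPR Control, at 192, 176 and 193 in KO 1, and at 721, 794 and 850 in KO 2. The lines were far apart relative to the spread within each, and this was the only member tested with all 6 deficient libraries below the 6 competent ones. Against WT the level in KO 1 was 12.6% (log2 fold change -2.98, SE 0.08, adjusted p = 3.79e-15) and that in KO 2 53.2% (-0.91, SE 0.08, adjusted p = 3.29e-08). CRISPR Control was at 255% of WT (1.35, SE 0.08, adjusted p = 1.39e-10), so the 2 competent lines differed from each other by more than KO 2 differed from WT. The size of these last 2 differences was not compared by a test.

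FAS, the receptor of FAS ligand, was at 96.2, 122 and 118 in WT, at 332, 294 and 256 in CRISPR Control, at 158, 136 and 170 in KO 1, and at 314, 221 and 230 in KO 2. WT was the lowest line, and CRISPR Control overlapped with KO 2. The increase against WT was 1.38 in CRISPR Control (SE 0.16, adjusted p = 5.67e-07) and 1.17 in KO 2 (SE 0.16, adjusted p = 4.11e-06). For KO 1 the value was 0.46 (SE 0.16, adjusted p = 0.0271), a call lost without WT replicate 1 (0.128), KO 1 replicate 1 (0.0739) or KO 1 replicate 3 (0.107). FAS overlaps STAMBPL1 and ACTA2. TNFRSF25, or DR3, the receptor of TL1A, rose in KO 2 alone among the comparisons with WT, from 202 ± 16.8 to 275 ± 21.4 (SD, n = 3, log2 fold change 0.44, SE 0.12, adjusted p = 0.00455, limma). With quantile normalization this was 0.21 (adjusted p = 0.13).

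TNFRSF11B is the member on which the family was selected. It encodes osteoprotegerin, a secreted decoy for RANKL and TRAIL, at chr8:118923557-118951885. It was at 2.26, 1.82 and 3.81 in WT, at 1284, 1492 and 1330 in CRISPR Control, at 0, 0 and 0 in KO 1, and at 2.49, 0.877 and 1.01 in KO 2. The transcript was thus at a count of 4 reads or fewer in 9 libraries and abundant in the 3 libraries of 1 line. The CRISPR Control mean was 520 times the WT mean, which is given with no test. Against KO 1 it was at least 443-fold higher, computed against 3 reads per library. The ratio of summed reads to KO 2, which had 5 in all, was 907 after scaling by size factors. These folds use the CRISPR Control libraries on which the family was selected, so they too are given with no test. No fold is given among WT, KO 1 and KO 2, where the gene was near or under the limit of 3 reads. Of the ligands of osteoprotegerin, RANKL had no read in any library.

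TNFRSF10D, a TRAIL decoy receptor, was at 303 ± 13.8 in WT, at 243 ± 27.0 in CRISPR Control, at 364 ± 21.7 in KO 1 and at 429 ± 28.1 in KO 2 (SD, n = 3). The deficient libraries were all above the competent ones, and the increase in KO 2 against WT was 0.50 (SE 0.11, adjusted p = 0.000751, limma). KO 1 did not pass the threshold against WT (0.26, SE 0.11, adjusted p = 0.0665). CRISPR Control differed from WT by -0.32 (SE 0.11, adjusted p = 0.0173). That call was lost without WT replicate 2 (0.0503) or 3 (0.0599), or CRISPR Control replicate 1 (0.063). The other TRAIL decoy, TNFRSF10C, had at most 12 reads in any library and was not tested. Sequences of the 4 TRAIL receptor genes are alike and the genes are neighbours on chromosome 8, so that reads shared between them could be left out or split.

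Among the other receptors, TNFRSF9 and CD40 were higher in both deficient lines, whereas TNFRSF19 and TNFRSF1B fell in KO 1 and rose in KO 2. TNFRSF9 encodes 4-1BB, the receptor of the TNFSF9 product, at chr1:7915871-7943165. It was at 24.9, 17.3 and 15.2 in WT, at 4.32, 5.93 and 6.59 in CRISPR Control, at 103, 75.4 and 89.2 in KO 1, and at 199, 164 and 203 in KO 2. The 4 lines did not overlap. The ratio of means to WT was 4.65 in KO 1 (log2 fold change 2.18, SE 0.24, adjusted p = 1.05e-06) and 9.85 in KO 2 (3.26, SE 0.24, adjusted p = 1.96e-09), and CRISPR Control was at 29.3% of WT (-1.59, SE 0.24, adjusted p = 2.28e-05). Ligand and receptor of this pair were thus both higher in the deficient lines than in WT. CRISPR Control was above WT for the ligand and below it for the receptor. For the ligand, KO 1 did not pass the threshold against CRISPR Control.

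CD40, a co-stimulatory receptor known from antigen-presenting cells and carcinoma cells, was at 501, 523 and 539 in WT, at 461, 476 and 495 in CRISPR Control, at 824, 800 and 749 in KO 1, and at 883, 970 and 909 in KO 2. Deficient and competent libraries did not overlap. It rose by 0.60 in KO 1 (SE 0.08, adjusted p = 1.48e-05) and by 0.82 in KO 2 (SE 0.08, adjusted p = 1.28e-07), while CRISPR Control differed from WT by -0.13 (SE 0.08, adjusted p = 0.211). Its ligand gene, CD40LG, had no read in any library. Between the deficient lines CD40 differed by 0.22 (SE 0.08, adjusted p = 0.0456), a call lost without WT replicate 2 (0.0542) or 3 (0.0594), KO 1 replicate 1 (0.058), 2 (0.0892) or 3 (0.171), or KO 2 replicate 2 (0.172) or 3 (0.0797).

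TNFRSF11A encodes RANK, the signalling receptor of RANKL. It was at 2397, 2372 and 2483 in WT, at 846, 790 and 851 in CRISPR Control, at 2864, 2730 and 2877 in KO 1, and at 3724, 3644 and 3634 in KO 2. CRISPR Control stood apart at 34.3% of WT (log2 fold change -1.54, SE 0.07, adjusted p = 5.53e-13), and it was the line in which the decoy TNFRSF11B was abundant. The increase against WT was 0.22 in KO 1 (SE 0.07, adjusted p = 0.0121), lost without KO 1 replicate 3 (0.0527), and 0.60 in KO 2 (SE 0.07, adjusted p = 3.36e-07). The 1.18 between deficient and competent lines (SE 0.05, adjusted p = 6.46e-14) is thus an average over 2 unlike competent lines.

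TNFRSF1B encodes TNFR2, the receptor with preference for membrane TNF. It was at 369, 335 and 369 in WT, at 844, 690 and 834 in CRISPR Control, at 159, 156 and 187 in KO 1, and at 451, 497 and 561 in KO 2. No lines overlapped, and they stood in the order KO 1, WT, KO 2, CRISPR Control. The change against WT was -1.09 in KO 1 (SE 0.12, adjusted p = 5.02e-07) and 0.49 in KO 2 (SE 0.12, adjusted p = 0.0015).

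TNFRSF19, or TROY, a receptor known from developing epithelia and the nervous system, showed the same opposite directions. It was at 23.8, 23.6 and 24.8 in WT, at 109, 85.4 and 89.0 in CRISPR Control, at 11.9, 4.50 and 5.30 in KO 1, and at 83.7, 76.3 and 52.5 in KO 2. WT lay between the deficient lines with no overlap. It fell by 1.71 on the log2 scale in KO 1 (log2 fold change -1.71, SE 0.30, adjusted p = 0.000164) and rose by 1.49 in KO 2 (SE 0.30, adjusted p = 0.000308). These were the only 2 of 25 members called in opposite directions in the deficient lines against WT, compared with 270 of all genes tested (1.69%).

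TNFRSF18 encodes GITR, and TNFRSF14 encodes HVEM, the receptor of LIGHT. TNFRSF18 was at 30.6, 14.5 and 39.1 in WT, at 105, 140 and 180 in CRISPR Control, at 22.7, 4.50 and 7.95 in KO 1, and at 14.9, 20.2 and 16.1 in KO 2. It stood apart in CRISPR Control, by 2.37 against WT (SE 0.43, adjusted p = 0.000141), while the other 3 lines overlapped. The change of -1.36 in KO 1 (SE 0.43, adjusted p = 0.0189) was lost without WT replicate 1 (0.0698) or 3 (0.1), or KO 1 replicate 2 (0.121) or 3 (0.063). TNFRSF14 was at 120, 135 and 112 in WT, at 248, 283 and 297 in CRISPR Control, at 132, 164 and 121 in KO 1, and at 201, 227 and 272 in KO 2. It rose in CRISPR Control by 1.16 (SE 0.15, adjusted p = 2.78e-06) and in KO 2 by 0.92 (SE 0.15, adjusted p = 3.92e-05), with KO 1 overlapping WT.

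TNFRSF12A encodes FN14, the receptor of TWEAK, and had the highest level per length of the members in WT (4195 normalised counts per kb of transcript). Its level was at 4099 ± 191 in WT, at 4375 ± 716 in CRISPR Control, at 3448 ± 174 in KO 1 and at 3833 ± 292 in KO 2 (SD, n = 3). The change in KO 1 against WT was -0.25 (SE 0.09, adjusted p = 0.048, limma) and passed the threshold in only 4 of the 12 fits that left out 1 library. TNFRSF13C, the receptor of BAFF, had means of 36.6 to 50.6 over the lines and passed the threshold in none of the 6 comparisons between pairs, but with quantile normalization it was lower in KO 2 than in KO 1 (log2 fold change -0.82, adjusted p = 0.00648, limma) and than in CRISPR Control (-0.57, adjusted p = 0.0276).

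Counted over the 25 members tested, 17 passed the threshold in KO 1 against WT, 10 higher and 7 lower, beside 35.5% of all 15987 genes tested in either direction (18.0% higher and 17.5% lower). In KO 2 against WT 18 passed, 16 higher and 2 lower, beside 55.0% of all genes (27.1% higher, 27.9% lower). CRISPR Control against WT gave 14, with 8 higher and 6 lower, beside 53.4% (27.2% and 26.3%). The 3 comparisons share the WT libraries, and the last is the one from which the family was taken up, so nothing is read from its count. Without TNFRSF11B, TNFSF15 and TNFSF10, the members called were 9 higher and 5 lower in KO 1, 15 and 1 in KO 2, and 7 and 5 in CRISPR Control. The median log2 fold change of the 25 against WT was 0.22 in KO 1, 0.50 in KO 2 and 0.12 in CRISPR Control, or 0.24, 0.54 and 0.10 without those 3, beside 0.00, -0.01 and 0.01 over all genes.

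**Figure D2:**
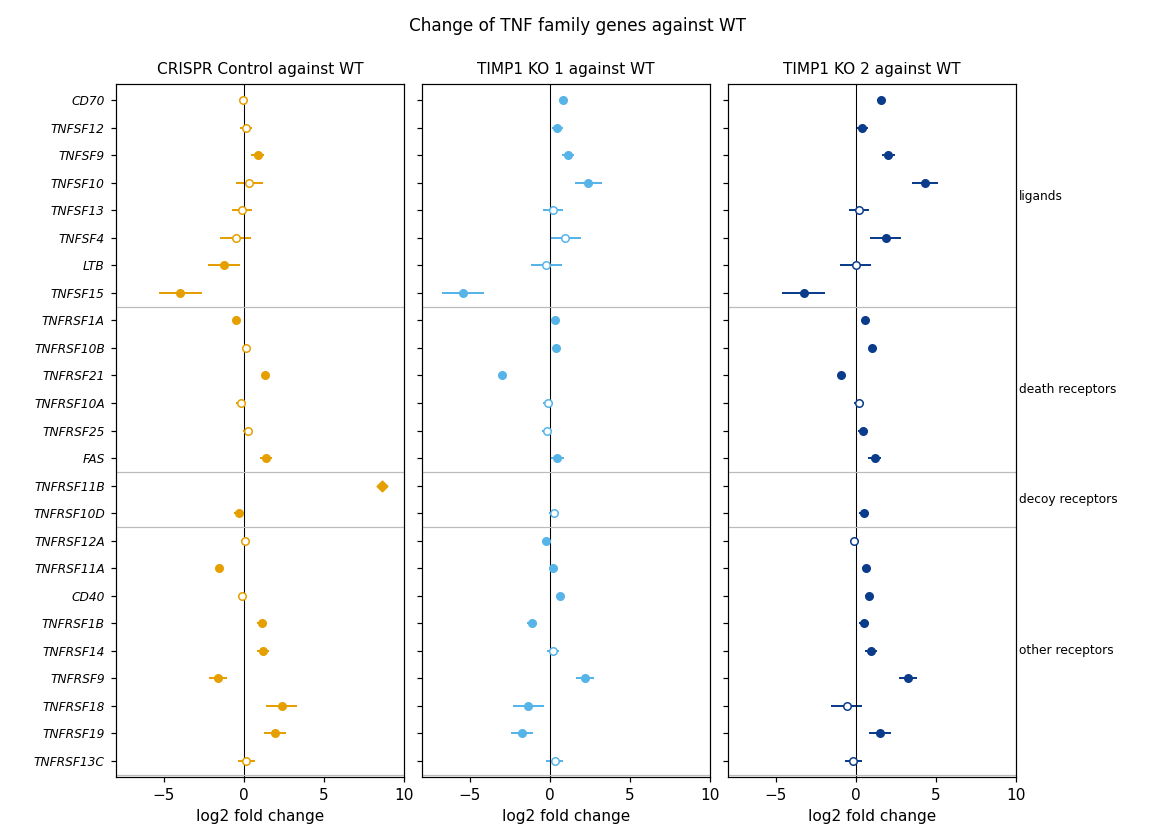
Log2 fold change of each tested member against WT in the 3 other lines, with 95% intervals, filled where the adjusted p was below 0.05. The diamond for TNFRSF11B in CRISPR Control (8.59) is a description with no test, and its points in the deficient lines are left out because reads were too few. TNFRSF19 and TNFRSF1B lie on opposite sides of 0 in KO 1 and KO 2.

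Against CRISPR Control, 20 members passed in KO 1, 10 higher and 10 lower, beside 63.0% of all genes (31.7% higher, 31.3% lower). For KO 2 the number was 16, with 12 higher and 4 lower, beside 67.7% (33.3% and 34.4%), and with quantile normalization it was 10 higher and 8 lower. The means of the deficient lines against the means of the competent lines gave 11 higher and 7 lower members, beside 65.9% of all genes called (32.9% higher, 33.0% lower). Without TNFRSF11B, TNFSF15 and TNFSF10, the numbers higher and lower were 9 and 8, 11 and 3, and 10 and 5. The median of the members was 0.26, 0.37 and 0.24 in these 3 comparisons, or 0.26, 0.34 and 0.30 without those genes, beside 0.00, -0.01 and 0.00 over all genes. In the last of them the largest increases were in TNFRSF9 (3.51, SE 0.17, adjusted p = 1.79e-12, limma) and TNFSF10 (3.19, adjusted p = 1.58e-08 with no filter), the latter among the tested members through the deficient lines alone. For TNFRSF9 the WT mean was 3.41 times that of CRISPR Control, so its value is an average over 2 unlike competent lines.

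The study asked which genes depend on TIMP1 and not on the editing procedure. By its definition, a gene had to differ from WT in both deficient lines and not in CRISPR Control. With the same direction asked in both lines, 5 of the 25 members met it, beside 10.2% of all genes tested. They were CD40, CD70, TNFRSF10B, TNFSF10 and TNFSF12, and the 5 were higher in the deficient lines. Of these, TNFSF10 was among the members tested through the deficient lines alone. Leaving out 1 library gave 4 to 6 members, with TNFSF12 lost without WT replicate 1, KO 2 replicate 2 or KO 2 replicate 3, and TNFSF4 added without WT replicate 1 or CRISPR Control replicate 3. A difference of CRISPR Control from WT that missed the threshold does not show that these lines were alike, and the 95% interval for TNFSF10 was the widest of the 5. Without any test, 9 members had the 6 deficient libraries all above the 6 competent ones, beside 12.3% of all genes, and 1 member (TNFRSF21) had them all below, beside 12.4%. The 9 were CD40, CD70, TNFRSF10B, TNFRSF10D, TNFRSF11A, TNFRSF1A, TNFRSF9, TNFSF10 and TNFSF9. Here too TNFSF10 was among the tested members through the deficient lines alone, so the minimum favoured its place in this count.

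The deficient lines also differed from each other. Of the 25 members, 16 were higher in KO 2 than in KO 1 and 0 were lower, beside 38.2% of all genes called (18.1% higher, 20.1% lower). Without TNFSF10, and TNFRSF11B and TNFSF15, which had 0 and 1 read in KO 1, the numbers were 13 and 0. The median difference of the members was 0.71, or 0.61 without these 3, against -0.01 over all genes. By limma, TNFRSF13C was the 1 member lower in KO 2 at an unadjusted p under 0.05 (-0.47, SE 0.22, adjusted p = 0.104), and with quantile normalization it was called lower beside 15 members called higher. On the recovered reads, edgeR called 18 higher and 0 lower, and DESeq2 17 higher and 0 lower. Apart from TNFSF15, with 20 reads in KO 2, the order was led by TNFRSF19 (3.20, SE 0.30, adjusted p = 8.92e-08), TNFRSF21 (2.07, SE 0.08, adjusted p = 1.02e-12), TNFSF10 and TNFRSF1B (1.58, SE 0.12, adjusted p = 3.66e-09). The summed markers of blood cells (118 to 140 in KO 1, 247 to 298 in KO 2), of fibroblasts and osteoblasts (402 to 436, 709 to 763) and of endothelium (97.9 to 109, 231 to 250) moved with this difference too, those of the carcinoma line were lower in KO 2, and so was TIMP1, which differed by -0.46 (SE 0.09, adjusted p = 0.000398), and their part in it was not tested.

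**Figure D3:**
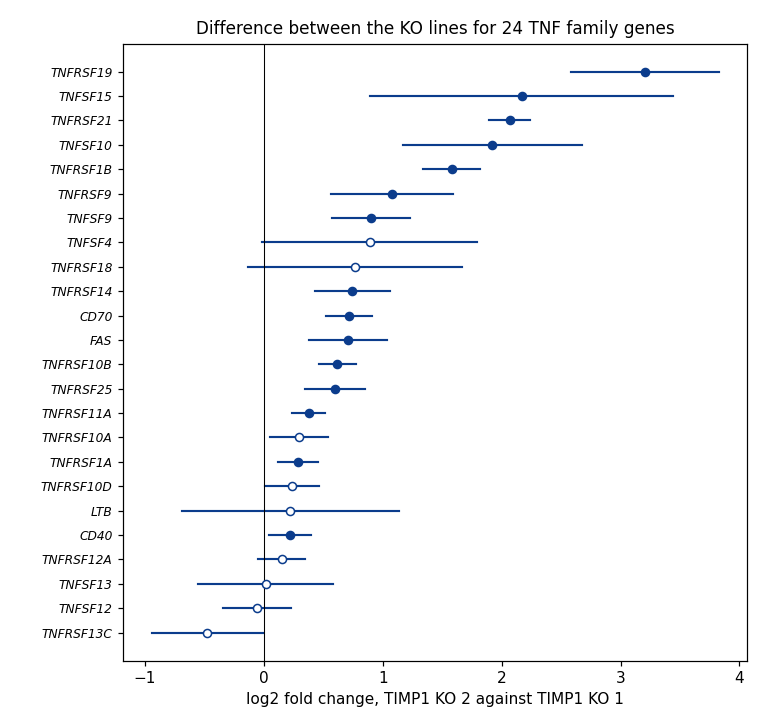
Log2 fold change of TIMP1 KO 2 against TIMP1 KO 1 for 24 of the 25 tested members, with 95% intervals, filled where the adjusted p was below 0.05 and TNFRSF11B left out for want of reads. The filled points are all to the right of 0, up to 3.20 for TNFRSF19.

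Over the 6 comparisons between pairs of lines, 23 members passed the threshold at least once and 5 in all 6, while 86.9% and 6.37% of all genes did so. The 6 pairs share libraries and are not independent of each other. They include CRISPR Control against WT, from which the family was taken up. TNFRSF11B, TNFSF15 and TNFSF10, which had to differ between lines, are among the 23, so nothing is read from these counts.

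Genes that act with the family were described from 2 further lists. The first holds superfamily genes whose symbols fall outside the rule, of which 3 of 8 were tested (LTBR, NGFR and RELT). LTBR, the receptor of lymphotoxin and LIGHT, lies near TNFRSF1A at chr12:6375045-6391571. It was at 388, 346 and 353 in WT and at 0 to 4.40 in the other 9 libraries, CRISPR Control included. In reads, this was 1095 over the 3 WT libraries against 6 over those of CRISPR Control and 10 over those of either deficient line, so near the limit of 3 reads per library that no fold is given. LTBR overlaps SCNN1A on the other strand, which was at 87.3 to 103 in WT, at 9.49 to 17.6 in CRISPR Control, 55.1 to 79.9 in KO 1 and 56.1 to 73.7 in KO 2. RELT was lower in both deficient lines than in WT, with log2 fold changes of -0.63 in KO 1 (SE 0.14, adjusted p = 0.00124) and -0.56 in KO 2 (SE 0.14, adjusted p = 0.00186). NGFR was higher in CRISPR Control than in WT by 1.43 (SE 0.15, adjusted p = 3.27e-07). Of the 3 genes, 0 were higher and 3 lower in KO 1 against WT, 0 and 2 in KO 2, and 1 and 1 in CRISPR Control. In the deficient against the competent lines 0 were higher and 3 lower, NGFR included, with a median of -0.82 against 0.00 over all genes. Of all genes, 32.9% were higher and 33.0% lower there. LTBR, high in WT alone, had to differ between lines.

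The second list holds 40 genes that pass on the signal of TNF receptors, such as adaptors, caspases, ubiquitin ligases and NF-kB subunits. Of 39 tested, 19 were higher and 7 lower in the deficient than in the competent lines, with a median of 0.21 against 0.00 over all genes, of which 32.9% were higher and 33.0% lower. RIPK3, the kinase of necroptosis, had no read in any library. The highest changes were those of CASP10, the caspase next to CASP8 in death receptor complexes (1.67, SE 0.19, adjusted p = 3.31e-07), and of TRAF1, an adaptor that is itself an NF-kB target (1.50, SE 0.09, adjusted p = 2.03e-11). The lowest were those of MAP3K14, the kinase of the alternative NF-kB pathway (-0.71, SE 0.06, adjusted p = 9.76e-09), and of BID, which links death receptors to mitochondria (-0.51, SE 0.07, adjusted p = 4.82e-06). Against WT, 10 genes of the list were higher and 4 lower in KO 1, 18 and 8 in KO 2, and 7 and 11 in CRISPR Control. The shares of all genes were 18.0% and 17.5%, 27.1% and 27.9%, and 27.2% and 26.3% in the same order.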

How the data were processed

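RNA-seq libraries of 12 MIA PaCa-2 cultures (4 lines, 3 replicates each) were analysed, with groups and replicate numbers from the sample titles. The authors trimmed reads with Cutadapt, used STAR for mapping to GRCh38 and featureCounts for counting by gene, and scaled the counts by DESeq2 size factors. The deposited values are thus a signal of scaled read counts. The strand setting and the annotation release are not given in the sources used here, so overlapping genes cannot be told apart. Such scaling sets the typical gene equal between libraries. Values were whole multiples of 1 step per library (100% whole within 0.01 reads), which gave the reads, with 26908701 to 36093563 per library. The table held 63086 genes and 1 blank line. A further 4 columns, each the mean of a line, stayed unused.

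Members and lists were chosen with earlier results of these data known. limma 3.58.1 (R 4.3.3; lmFit on 4 line means, eBayes with trend, two-sided) was run on log2(normalised count + 1) of the 15987 genes with a mean of at least 10, with Benjamini-Hochberg adjustment over them and a threshold of 0.05. A fold on this scale understates the change of low genes. Members in the intersection, or called with an absolute log2 fold change of at least 1 in any pair of lines, are described in every library. The other tested members are described by means. Alternatives were other pseudocounts, filters and scalings, edgeR 4.0.16 and DESeq2 1.42.0 on the recovered reads, a replicate block, a fold limit and leaving out each library. Of the gene identifiers, 99.1% matched GENCODE release 44, which gave coordinates and lengths. The script for the tests was tested on simulated data. Counting intervals were exact binomial at 95%, for counting error only.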

Additional observations from a re-analysis of the deposited data

Results flagged for a closer look

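Both results below are differences between the TIMP1 KO lines. TNFRSF1B fell in KO 1 and rose in KO 2 against WT, and KO 2 was above KO 1 by 1.58 on the log2 scale (SE 0.12, adjusted p = 3.66e-09, limma). TNFRSF19 did the same, with a difference of 3.20 (SE 0.30, adjusted p = 8.92e-08). In both genes the 3 WT libraries lay between those of KO 1 and those of KO 2, and CRISPR Control was above WT. Each deficient line was 1 clone, so the clone and the way its TIMP1 was edited cannot be told apart. No gap of 1 library to the rest was looked for, because lines had 3 libraries each.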

How the results depend on the processing

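Asking for an absolute log2 fold change of at least 1 beside the adjusted p left 9 members called in KO 1 against WT, 9 in KO 2 against WT, 10 in KO 1 against CRISPR Control, 7 in KO 2 against KO 1, 11 in deficient against competent lines and 2 in the intersection. With 1 library left out the number called was 13 to 19 in KO 1 against WT, 17 to 18 in KO 2 against WT, 12 to 14 in CRISPR Control against WT, 18 to 21 in KO 1 against CRISPR Control, 14 to 18 in KO 2 against CRISPR Control, 14 to 17 in KO 2 against KO 1, 18 to 19 in deficient against competent lines and 4 to 6 in the intersection. The replicate numbers did not pair the libraries, since the deviations of same-numbered libraries from their line means correlated at -0.13 to 0.16 over 18 pairs. With the replicate block, 17, 18 and 14 members were called against WT in KO 1, KO 2 and CRISPR Control, 20 and 17 against CRISPR Control, 15 between the KO lines, 18 in deficient against competent lines and 5 in the intersection. No value of a member past the threshold changed direction in any alternative run. With all libraries kept and the fold limit set aside, 1645 values stayed on their side of the threshold, 29 lost a call and 20 gained one. With 1 library left out these numbers were 2029, 54 and 17. With all libraries kept, at least 1 call changed under some setting other than the fold limit in 14 members, namely CD40, FAS, LTB, TNFRSF10A, TNFRSF10D, TNFRSF11B, TNFRSF12A, TNFRSF13C, TNFRSF14, TNFRSF19, TNFRSF25, TNFSF12, TNFSF15 and TNFSF4. The fold limit removed calls of further members. The cause was not tested. With a minimum mean of 1, which brought in members under 10 normalised counts, 20 members were called in KO 2 against WT, 18 of them higher. A member with no read in a library cannot be told apart from up to 3 reads.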
